A study of Mus musculus with 157 samples.

Results

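Livers at the 2 ends of collagen expression were compared among 157 male pre-Collaborative Cross mice. Each mouse was given the mean score of Col1a1, Col1a2, Col3a1 and Timp1, and the mice were chosen by this measured value: the 40 with the highest mean (high-score mice) were set against the 40 with the lowest (low-score mice). These 80 mice came from 157, and the other 77 lay between them. All were males of different partly inbred strains descending from CAST/Ei, PWK/Ph, WSB/Ei, 129S1/SvImJ, A/J, C57BL/6J, NOD/LtJ and NZO/H1LtJ, and each strain gave 1 mouse and 1 array. Per the labels' protocols, they ate a standard chow and were killed at an age of 12 to 15 weeks, following a programme with alcohol exposure and exercise. Treatment is not resolved per mouse in the labels, so the groups could not be compared by it, and no untreated group was analysed here. A score ranks the mice for 1 gene and holds no expression level: 0 is the middle of the 157 mice, and the ends are -2.49 and 2.49. All differences below are in these score units, with no fold change.

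Type I collagen is built from the chains encoded by Col1a1 and Col1a2, and type III collagen from the chain encoded by Col3a1. Both are fibrillar collagens of the extracellular matrix, and in liver their main source after injury is the hepatic stellate cell, a vitamin A-storing cell of the perisinusoidal space that can become a myofibroblast. Timp1 encodes a secreted inhibitor of the matrix metalloproteinases, the enzymes that degrade collagen, and its transcript is known to rise in injured and inflamed liver. In whole liver, more collagen-producing cells and more RNA per such cell cannot be told apart.

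The sequences before the annotated starts of the genes that ranked the mice are shown as a description. Over the livers these transcripts were related unevenly, with Pearson r from 0.169 (Col3a1 and Timp1) to 0.597 (Col1a2 and Col3a1). The promoter sequences at hand (RefSeq, GRCm38.p6, plus strand) covered 3 of the 4 genes, and the one for Col1a1 was not among them. Each line gives the 250 bases before the start, 5′ to 3′, with letters of a searched motif in capitals. The motifs, read on both strands, were CCAAT, the TATA box TATAAA, the AP-1 motif TGAGTCA and the GC box GGGCGG.
Col1a2, chr6:4505368-4505617: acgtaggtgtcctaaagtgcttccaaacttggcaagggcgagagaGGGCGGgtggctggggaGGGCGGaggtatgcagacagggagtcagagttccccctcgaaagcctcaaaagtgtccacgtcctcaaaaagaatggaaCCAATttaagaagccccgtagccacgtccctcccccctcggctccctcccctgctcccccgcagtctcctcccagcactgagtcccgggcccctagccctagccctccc
Col3a1, chr1:45311288-45311537: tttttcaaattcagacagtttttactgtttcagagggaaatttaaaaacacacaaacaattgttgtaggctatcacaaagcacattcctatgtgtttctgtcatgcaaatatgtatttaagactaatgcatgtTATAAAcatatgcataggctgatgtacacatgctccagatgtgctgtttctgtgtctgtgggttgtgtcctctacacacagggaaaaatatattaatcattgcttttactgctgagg
Timp1, chrX:20869916-20870165: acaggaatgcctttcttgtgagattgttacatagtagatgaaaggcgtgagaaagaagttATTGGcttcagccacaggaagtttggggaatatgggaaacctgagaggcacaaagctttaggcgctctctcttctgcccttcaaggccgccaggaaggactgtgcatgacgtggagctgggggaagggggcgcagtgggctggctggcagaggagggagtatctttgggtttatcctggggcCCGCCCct
The Col1a2 window held CCAAT from 109 to 105 bases before the start and GGGCGG at 2 places. The Timp1 window held CCAAT and GGGCGG once each, both on the minus strand, and the Col3a1 window held TATAAA from 117 to 112 bases before the start and none of the other motifs. Among all 32851 windows of this length, 33.8% held CCAAT, 32.7% GGGCGG, 12.4% TATAAA and 4.46% TGAGTCA. No motif was common to all 3 windows, and a match is a description of the letters only.

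The groups follow from the 4 genes by construction, so the differences in their scores between groups are given with no test. The 4-gene mean ran from 0.489 to 2.49 in the high-score mice (median 0.741) and from -2.14 to -0.475 in the low-score mice (median -0.785). The last mouse taken into the high group had 0.489 and the next one outside it 0.450; the last mouse of the low group had -0.475 and the next one outside it -0.450. The cut therefore fell in a continuous range with no gap. One mouse, of kill cohort 7 and batch 1, held the highest rank for all 4 genes.

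Col1a1 ran from -0.746 to 2.49 in the high-score mice (median 0.914) and from -2.49 to 0.616 in the low-score mice (median -0.963). Col1a2 ran from -0.442 to 2.49 (median 1.07) and from -2.49 to 0.151 (median -1.06), the narrowest overlap of the 4. Col3a1 ran from -1.21 to 2.49 (median 0.926) and from -2.49 to 0.469 (median -0.844). All 3 collagen transcripts overlapped between the groups although they chose them. Timp1 ran from -1.43 to 2.49 (median 0.821) in the high-score mice and from -2.49 to 0.705 (median -0.844) in the low-score mice, and 9 of the 40 high-score mice lay below the middle of the series for it.

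A high mean did not require that all 4 genes were high. Of the 40 high-score mice, 19 lay above 0 for all 4 genes, 19 for 3 of them and 2 for fewer. Of the 40 low-score mice, 22 lay below 0 for all 4 and 18 for 3. The mean of the 3 collagens was above 0 in 40 of 40 high-score mice and below 0 in 40 of 40 low-score mice. These signs follow closely from the choice of mice, and the collagen means of the high-score mice went down to 0.097 and those of the low-score mice up to -0.152, inside the range of the middle mice (-0.895 to 0.744). Leaving Timp1 out of the mean kept 34 of the high-score and 32 of the low-score mice among the most extreme 40, and leaving Col1a2 out kept 31 and 34.

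**Figure D1:**
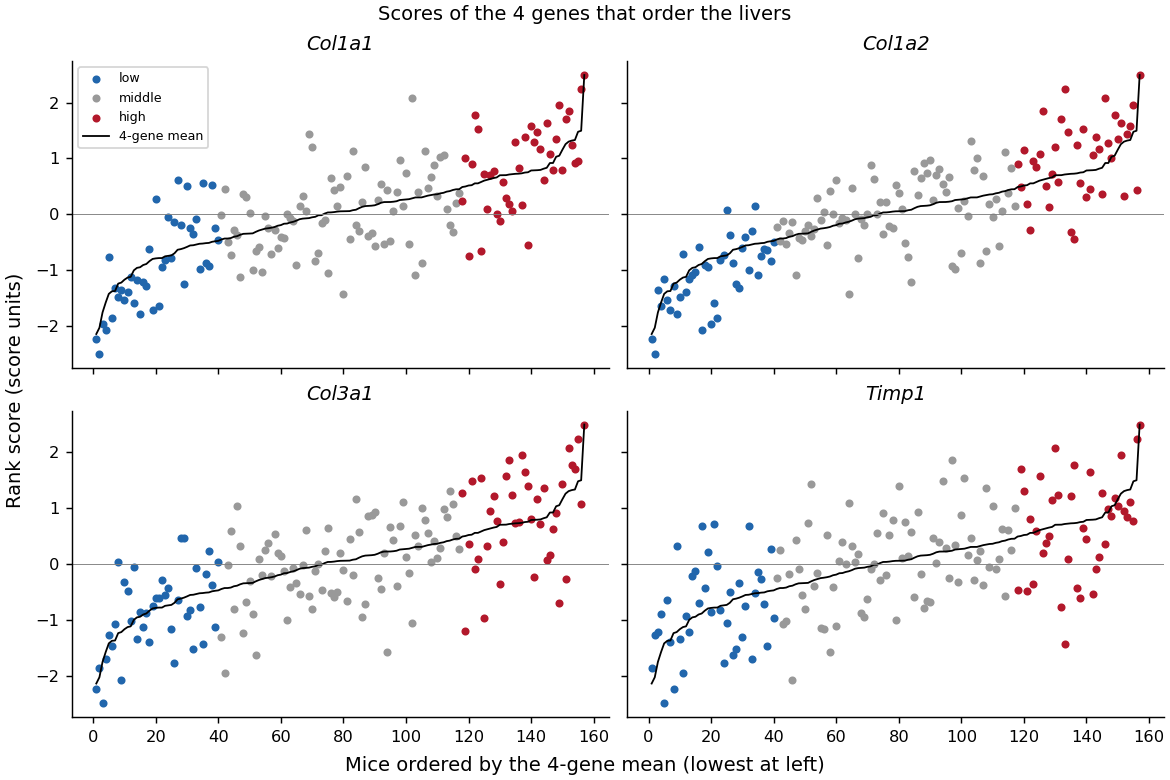
Rank scores (score units) of Col1a1, Col1a2, Col3a1 and Timp1 in each of 157 mice, ordered from the lowest to the highest 4-gene mean; points are mice, coloured by group, and the black line is the 4-gene mean. Some high-score mice lie below 0 for each gene, from 3 of 40 for Col1a2 to 9 of 40 for Timp1, and Col1a2 overlaps least between low and high (-0.442 to 0.151).

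As a description of the values used to choose the mice, Col1a2 and Col3a1 were the most alike of the 6 gene pairs over the 157 mice (Pearson r = 0.597, Spearman rho = 0.557). Col1a1 and Col1a2, whose chains form the same protein, had r = 0.510 and rho = 0.439. Timp1 was nearest to Col1a1 (r = 0.404, rho = 0.353) and farthest from Col3a1 (r = 0.169, rho = 0.143). These values share the arrays and their normalization, and no p is given for relations among the 4 genes.

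The labels, which the choice did not use, were compared with the 4-gene mean over all 157 mice. Kill cohorts, formed from kill dates at most 3 days apart, accounted for 4.83% of its variance (permutation test, p = 0.589, adjusted p = 0.842 over 10 tests). Hybridization batch accounted for 9.24% (permutation test, p = 0.0393, adjusted p = 0.111), which did not pass after adjustment. No single gene passed after adjustment: batch accounted for 10.7% of Col1a2 and 10.6% of Col1a1 (adjusted permutation p = 0.0899 for each), 9.12% of Timp1 (adjusted p = 0.111) and 5.24% of Col3a1 (adjusted p = 0.535), and cohort for 2.51% to 7.54%.

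The groups were nevertheless unevenly spread over batches and cohorts. Batch 3 gave 7 high-score and 0 low-score mice of 22, with a 4-gene mean of 0.309 ± 0.457 (SD, n = 22). Batch 8 gave 0 high-score and 6 low-score mice of 11, with -0.598 ± 0.731 (SD, n = 11). Kill cohort 1 gave 0 high-score and 6 low-score of 20 mice (mean -0.270 ± 0.594, SD), while cohort 7 gave 13 high-score and 5 low-score of 37 (mean 0.194 ± 0.670, SD). Batch and cohort were therefore fitted as covariates in the limma fits that follow, unless stated otherwise. The permutation tests fitted neither. Batches 3 and 8 hold 1 of the groups only.

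**Figure D2:**
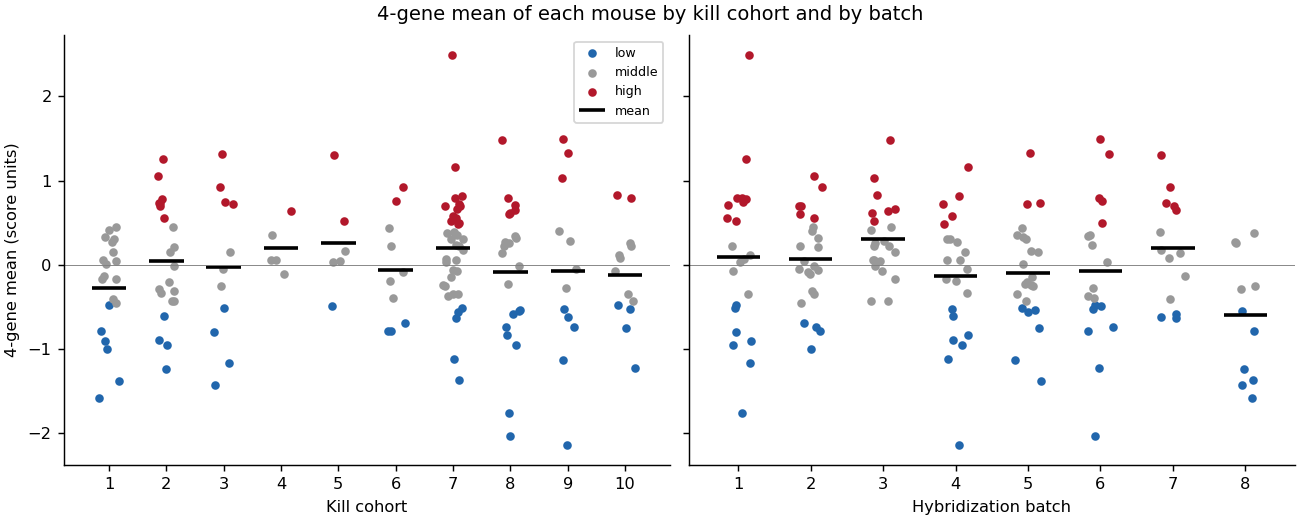
The 4-gene mean (score units) of each mouse by kill cohort (left, 1 to 10) and by hybridization batch (right, 1 to 8); points are mice coloured by group and black bars are means. Batch 8 has the lowest mean (-0.598) and no high-score mouse, and batch 3 the highest (0.309) and no low-score mouse.

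Of the 23172 other genes, 3448 differed between high-score and low-score livers with batch and kill cohort fitted (limma, adjusted p under 0.05), which is 14.9% of those tested. Of these, 2613 (11.3%) were higher and 835 (3.6%) lower in the high-score mice. The called higher genes had a median difference of 0.84 score units (0.70 to 1.49), and the called lower genes one of -0.80 (-1.41 to -0.70). Over all tested genes the median difference was 0.15. The split of directions depends on the scaling: when each array was centred on its own median, 936 genes were higher and 1693 lower, and after quantile normalization of the arrays 695 were higher and 953 lower. Both scalings set the median of all genes near 0 by construction (-0.01 and 0.01), so directions are relative to the scaling used.

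The count rested on part of the mice. Without batch 1, which held 9 high-score and 7 low-score mice, limma called 3 genes (2 higher and 1 lower). The 2 arrays with the widest spread of scores both belonged to high-score mice, with SDs over genes of 1.40 and 1.57 against 1.19 for the next widest, and without them 1308 genes were called. When each of the 80 mice was left out in turn, the count ran from 1590 to 4446 (median 3408.5). It moved by over 1.5 times for 2 mice, the widest array (high-score, batch 6, kill cohort 9, 1590 genes without it) and a low-score mouse of batch 7 and kill cohort 7 (2294 genes without it).

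The files and reference tables do not pair the other Ensembl identifiers with gene symbols. Neither the functions of the called genes nor markers of stellate cells, macrophages, bile ducts or hepatocytes could therefore be read from them, and the liver label was not checked against markers. The identifiers with the largest differences in each direction are given as examples. The same mice picked them, so the counts of mice and the signs within batches given for them are a description and no further test.

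ENSMUSG00000076316 ran from -2.24 to 0.63 in the low-score mice (median -0.72) and from -1.53 to 2.49 in the high-score mice (median 0.67). Nearly all high-score mice were on the upper side, 38 of 40 above the median of the low-score mice, although the groups overlapped. The difference was 1.49 ± 0.26 (SE, limma adjusted p = 0.000306), and it was positive in 6 of the 6 batches that held both groups (1.02 to 2.07). ENSMUSG00000046215 ran from -2.49 to 1.61 (median -0.66) in the low-score and from -0.70 to 2.49 (median 0.58) in the high-score mice. For it, 39 of 40 high-score mice lay above the low-score median, and the difference was 1.42 ± 0.26 (SE, limma adjusted p = 0.00058), positive in 6 of 6 batches (0.78 to 1.82).

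ENSMUSG00000029465 ran from -1.86 to 2.49 in the low-score mice (median 0.56) and from -2.49 to 1.77 in the high-score mice (median -0.58). The ranges overlapped almost fully, and 34 of 40 high-score mice lay below the low-score median. The difference was -1.41 ± 0.26 (SE, limma adjusted p = 0.00058), negative in 6 of 6 batches (-1.55 to -0.48). ENSMUSG00000065919 ran from -1.35 to 2.49 (median 0.60) in the low-score and from -2.49 to 1.00 (median -0.58) in the high-score mice. Its difference was -1.31 ± 0.26 (SE, limma adjusted p = 0.0018), negative in 5 of 6 batches (-2.10 to 0.34).

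**Figure D3:**
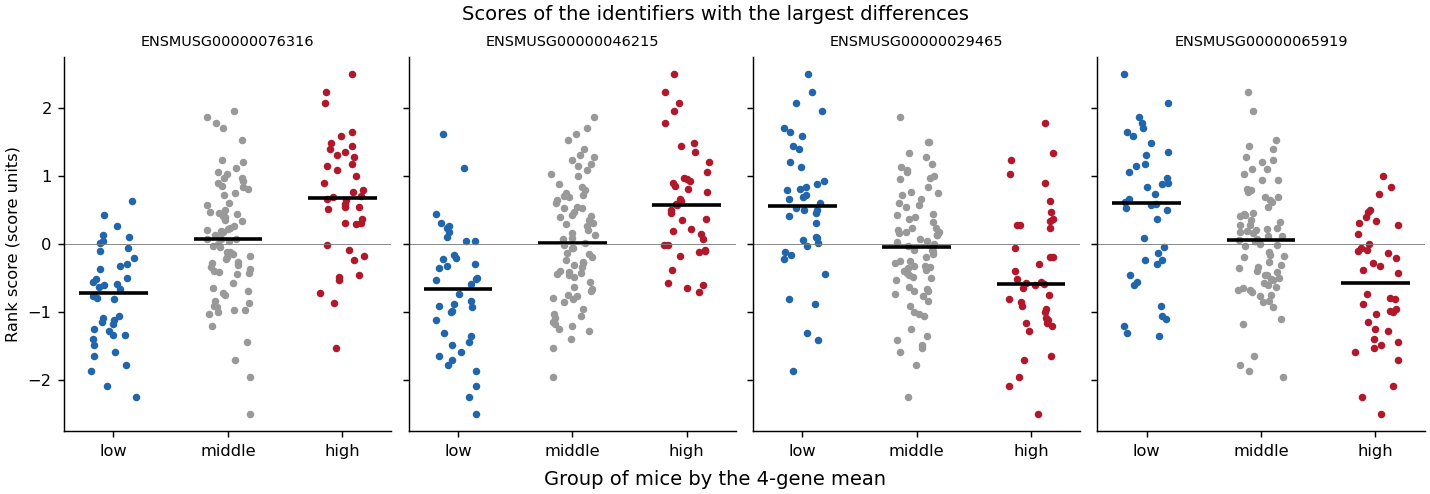
Rank scores (score units) of the identifiers with the largest positive (left pair) and negative (right pair) differences, in 40 low-score, 77 middle and 40 high-score mice; points are mice and black bars are medians. Medians of the first panel run from -0.72 through 0.08 to 0.67, and all groups overlap.

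The 77 middle mice, which the comparison did not use, lay between the groups. Among the called higher genes the median over genes of the group mean was -0.44 in low-score, 0.01 in middle and 0.42 in high-score mice. Among the called lower genes it was 0.43, -0.04 and -0.36. The middle mean lay between the other means for 2582 of 2613 higher genes (98.8%) and 814 of 835 lower genes (97.5%), against 66.5% of all tested genes. Scores of the middle mice are tied to those of the other mice by the ranking. The called genes were also chosen for large differences between the end groups, which favours a middle mean between them. This position, and its contrast with all tested genes, is therefore a description.

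Within the middle mice, limma called 0 of 23172 genes (0%) for a slope on the 4-gene mean. At an unadjusted p under 0.05 there were 1154 genes, the smallest adjusted p was 0.985, and a fit without moderation also called 0. With no relation at all, a share of 0.05 of the genes is expected under that threshold, and 1154 lies near it. The slope had the sign of the high-minus-low difference for 65.4% of the 3448 called genes, against 58.7% of all tested genes. For the called lower genes the share was 70.9% and the median slope -0.22, and for the called higher genes 63.6% and 0.14. The middle mice span only -0.450 to 0.450 of the 4-gene mean, which limits what their slopes can show. The slopes of the examples had SEs of 0.43 and none passed: 0.46 for ENSMUSG00000076316, -0.46 for ENSMUSG00000046215, -0.24 for ENSMUSG00000029465 and -0.06 for ENSMUSG00000065919.

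The difference between high-score and low-score mice was also compared between kill cohorts 1 to 6 (16 high-score and 18 low-score mice) and 7 to 10 (24 and 22). The test of that difference in limma called 0 genes (0%). At an unadjusted p under 0.05 there were 706, with a smallest adjusted p of 0.9999, and 0 without moderation. That is below the share of 0.05 of the genes that is expected with no such difference. Taken apart, the early cohorts called 1 gene and the late cohorts 352 (272 higher and 80 lower), with fewer mice in each. The early cohorts had 3124 genes at an unadjusted p under 0.05 and 0 called without moderation. Over all tested genes the median difference was 0.189 in the early and 0.142 in the late cohorts. ENSMUSG00000029465 differed by -2.55 ± 0.51 (SE) in the early and -1.06 ± 0.35 in the late cohorts, and ENSMUSG00000065919 by -0.93 ± 0.51 and -1.62 ± 0.35. Over the called higher genes the median difference was positive in each of the 8 kill cohorts that held both groups (0.31 to 1.35) and in each of the 6 such batches (0.42 to 1.33). Over the called lower genes it was negative in each (-1.26 to -0.35 in cohorts and -1.07 to -0.55 in batches). The same mice called the genes, so these directions describe how they are spread and are no further test.

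A property of the whole array moved with the groups. The array mean, the mean score of a mouse over the 23172 other genes, ran from -0.20 to 0.06 in the low-score mice (median -0.08) and from -0.13 to 0.30 in the high-score mice (median 0.05). It was below 0 in 34 of 40 low-score and above 0 in 28 of 40 high-score mice. The groups differed by 0.142 (two-sided permutation test, p = 1e-05, the smallest the permutations can give, adjusted p = 2e-05 over 2 tests). Batch and cohort were not fitted in that test. The array mean averaged 0.0737 in batch 3, without low-score mice, and -0.0585 in batch 8, without high-score mice. The SD of scores over genes differed by 0.0267 (permutation p = 0.350), and by 0.00067 without the 2 widest arrays (permutation p = 0.975).

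Over all 157 mice the 4-gene mean rose with the array mean (r = 0.506, rho = 0.483; permutation p = 1e-05 for both, adjusted p = 1.6e-05 over 8 relations with 16 p-values). Without the 2 mice farthest from the median array mean r was 0.512. It was positive in 7 of 8 batches (0.196 to 0.745) and -0.437 in batch 3 (22 mice), so the relation did not hold within that batch. It also rose with the first principal component of the other genes (r = 0.541, rho = 0.482, permutation test, adjusted p = 1.6e-05 for both). That r was 0.513 when the 2 farthest mice were left out, and it ran from -0.0172 to 0.920 within batches. With the second component r was 0.288 and rho 0.282 (permutation test, adjusted p = 0.000364 and 0.000507), r was 0.314 when the 2 farthest mice were left out, and it ran from -0.439 to 0.530 within batches. The 4-gene mean showed no relation past the threshold to the SD over genes (r = 0.0442, rho = 0.0225; permutation test, adjusted p = 0.621 and 0.779), with r = -0.0903 when the 2 farthest mice were left out and -0.722 to 0.421 within batches.

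The relation was also computed for each gene of the score, with the array mean taken over the other genes. Col1a1 had r = 0.485 and rho = 0.456 with the array mean, Col1a2 0.449 and 0.450, and Timp1 0.404 and 0.374 (adjusted permutation p = 1.6e-05 for each). Col3a1 had r = 0.167 (adjusted permutation p = 0.0462) and rho = 0.145 (adjusted p = 0.0800), and only the former passed. When the 2 farthest mice were left out, r was 0.479 for Col1a1, 0.468 for Col1a2, 0.393 for Timp1 and 0.183 for Col3a1. Within batches it ran from -0.316 to 0.781 for Col1a1, -0.309 to 0.683 for Col1a2, 0.152 to 0.522 for Timp1 and -0.441 to 0.505 for Col3a1. Col1a1, which had the largest r, was compared with each other gene by a sign-flip permutation test. Its r was higher by 0.318 than that of Col3a1 (sign-flip test, adjusted p = 0.00123 over 3 tests). It did not differ past the threshold from Col1a2 (sign-flip test, adjusted p = 0.627) or Timp1 (adjusted p = 0.532). No further order of the genes is drawn.

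**Figure D4:**
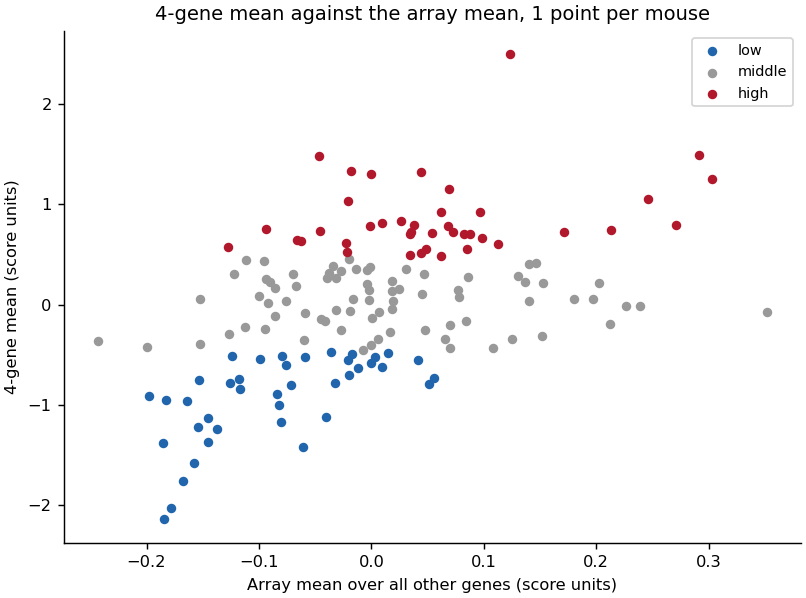
The 4-gene mean (y axis, score units) against the mean score over all other genes of the same array (x axis, score units), 1 point per mouse, coloured by group. Low-score mice lie mostly left of 0 (34 of 40) and high-score mice mostly right of it (28 of 40), with middle mice over the whole width.

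With the array mean fitted beside batch and cohort, limma called 0 of 23172 genes (0%) between high-score and low-score mice. At an unadjusted p under 0.05 there were 1389, with a smallest adjusted p of 0.589, and 0 without moderation. That is little above the share of 0.05 of the genes that is expected with no difference at all. Differences were smaller but mostly kept their sign: 2531 of the 2613 called higher genes stayed positive (median 0.34 in place of 0.84), and 825 of the 835 called lower genes stayed negative (median -0.51 in place of -0.80). The same mice had picked these genes for large differences of that sign, so the kept signs are a description and no further test. The array mean is itself made of the genes tested, so this fit takes out the part of a difference that runs with it, whatever its source. The SE of a difference also rose, from 0.26 to 0.31. ENSMUSG00000076316 went to 0.96 ± 0.31 (SE, limma adjusted p = 0.620) and ENSMUSG00000029465 to -1.04 ± 0.31 (limma adjusted p = 0.620). RNA quality and array brightness are not in the files used here, and their part in the difference of array means was not tested.

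**Figure D5:**
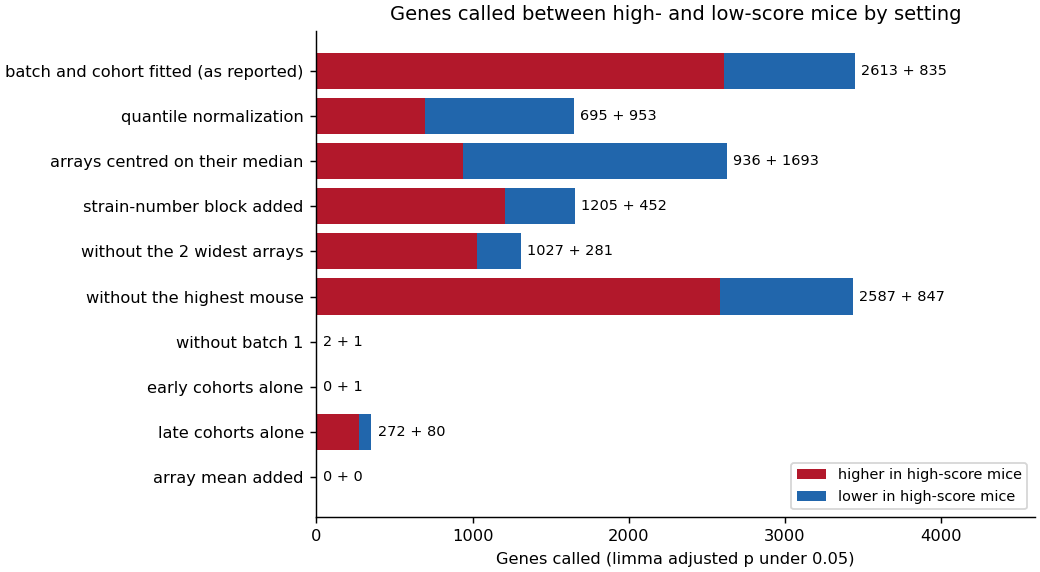
Number of genes called higher (red) and lower (blue) in high-score than in low-score mice (x axis, limma adjusted p under 0.05) under the reported fit and under other settings (y axis), with both counts printed beside each bar. The reported 2613 and 835 genes fall to 2 and 1 without batch 1 and to 0 and 0 with the array mean fitted, and they are 936 and 1693 when arrays are centred on their median, a scaling that by construction sets the median difference near 0.

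Slopes over all 157 mice were fitted to see how far genes went with each of the 4 transcripts. They use the mice in full rather than the ends, and those on single genes, like the joint fits further on, were added after the group comparison was known. For the 4-gene mean limma called 8015 genes (34.6%), 5628 rising (24.3%) and 2387 falling (10.3%). For Col1a1 alone 10821 genes were called (46.7%), 7045 rising with it (30.4%) and 3776 falling (16.3%). For Timp1 4175 were called (18%), 3172 rising (13.7%) and 1003 falling (4.33%). For Col1a2 2396 were called (10.3%), 1841 rising (7.94%) and 555 falling (2.4%). For Col3a1 273 were called (1.18%), 157 rising (0.678%) and 116 falling (0.501%). All these fits share the same mice, and the counts were not tested against each other. The 2 widest arrays had high Col1a1 scores (1.95 and 2.24), and no count without them is given for these slopes.

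With the array mean fitted, the counts were smaller. Col1a1 had 4404 genes (19%), 2359 rising (10.2%) and 2045 falling (8.83%). Col3a1 had 226 (0.975%), 149 rising (0.643%) and 77 falling (0.332%), and Col1a2 had 10 (0.0432%), 9 rising (0.0388%) and 1 falling (0.00432%). Timp1 had 0 (0%) by limma, with 2817 at an unadjusted p under 0.05 and 0 without moderation. The 4-gene mean had 346 (1.49%), 135 rising (0.583%) and 211 falling (0.911%), of which 202 were also called between the groups of 40 in the same direction. Of all tested genes, 14.9% were called between those groups. Both fits use the same score and share mice, so the overlap is a description and no separate test.

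Collagen and Timp1 were also fitted together, each scaled to an SD of 1 over the mice. With Timp1 held, 2192 genes (9.46%) followed the mean of the 3 collagens, 1447 rising (6.24%) and 745 falling (3.22%). With the collagens held, 49 genes (0.211%) followed Timp1, 42 rising (0.181%) and 7 falling (0.0302%), and 0 genes were in both lists. The test of the difference between the collagen slope and the Timp1 slope called 1 gene of 23172 (0.00432%), so the genes are not shown to follow collagen rather than Timp1. ENSMUSG00000076316 had slopes of 0.34 on collagen (limma adjusted p = 0.00738) and 0.27 on Timp1 (limma adjusted p = 0.0796), with SEs of 0.0857 and 0.0850. ENSMUSG00000046215 had 0.22 on collagen (limma adjusted p = 0.0799) and 0.33 on Timp1 (limma adjusted p = 0.0529), and neither passed. ENSMUSG00000029465 had -0.25 (limma adjusted p = 0.0412) and -0.16 (limma adjusted p = 0.261), and ENSMUSG00000065919 had -0.34 (limma adjusted p = 0.00738) and -0.15 (limma adjusted p = 0.302). With the array mean also fitted, 87 genes (0.375%) followed the collagen mean, 41 rising (0.177%) and 46 falling (0.199%), and 2 genes (0.00863%) followed Timp1.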

How the data were processed

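Liver RNA was measured on Affymetrix arrays, 1 per mouse. A custom probe definition (NCBI 37, Ensembl 49) gave 1 value for each gene, as the series design states. The submitters' processing notes name RMA and affy without versions. What the authors deposited is 1 score for each gene in each mouse: all 23176 genes equal, within 6e-05, the normal quantile of the mouse's rank, a step no label describes. The scores therefore hold no level.

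Mice and gene lists were chosen with earlier results of these data known. Kill cohorts (10, with 5 to 37 mice) and 8 batches (11 to 24 arrays) come from the labels, although the design text gives another number of batches. Linear models used limma 3.58.1 (lmFit, eBayes without trend) in R 4.3.3, coefficient high minus low, Benjamini-Hochberg adjusted over 23172 genes without the 4 of the score. Prior degrees of freedom were infinite, so examples share 1 SE. Permutation tests drew 100000 resamples in Python 3.11.15 (numpy 2.4.6, scipy 1.17.1, pandas 2.3.3). Only the limma comparison of the groups was tried on simulated data, with independent genes and no component shared over an array. Precision is limited by the number of arrays. With 1 mouse per strain, the p-values mix spread from strain, environment and array.

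The design had been written for log2 levels and gene symbols. The 38 gene lists and the markers were not used here because 0 identifiers matched a symbol. The rule for named genes (largest differences among called genes) was narrowed to 2 identifiers in each direction, and the low-value filter has no meaning on ranks. Alternatives covered normalization, covariates, moderation, group size, score and samples.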

Additional observations from a re-analysis of the deposited data

How the results depend on the processing

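Of 33 alternatives for the 3448 called genes, 15 stayed within 1.5 times. The others, with totals first and then higher and lower genes, were 1648 (695 and 953) after quantile normalization, 7968 (5737 and 2231) without covariates, 6201 (4622 and 1579) with batch only, 1657 (1205 and 452) with strain-number block added, 8015 (5628 and 2387) as a slope over all mice, 1027 (811 and 216) for 20 against 20 mice, 6244 (4510 and 1734) when batch and cohort were first removed from the score, 1308 (1027 and 281) without the 2 widest arrays, 1 (0 and 1) in early and 352 (272 and 80) in late cohorts, 3 (2 and 1) without batch 1, 1634 (1224 and 410) without batch 2, 1797 (1380 and 417) without batch 6, and 2273 (1856 and 417) without batch 7. The count was 0 (0 and 0) with the array mean added (1389 at an unadjusted p under 0.05), 0 with component 1 added (2022, and 1 called without moderation) and 0 when the array mean was removed from the score (2748, and 0 without moderation), which kept 27 mice of each group. With that score and the array mean fitted, 84 (36 and 48) were called. With arrays centred on their median the total stayed within 1.5 times (2629) but both directions moved (936 and 1693). The lower count alone moved for all mice in 3 levels (1302) and for the collagens without Timp1 (1455). Without kill cohort 4 replicate 2, the only mouse of the smallest cohort in a group, the counts were 3448, 2613 and 835. That outcome was fixed in advance, since the fitted cohort factor takes up a cohort's only mouse. It is counted among the 15 and says nothing about stability. Subsets hold fewer mice; otherwise the cause was not tested.

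The 4 identifiers kept their direction in all 132 values, of which 109 passed the threshold and 23 did not. They were picked for their large differences in mice that the alternatives reuse, and some settings change only the SE. The kept direction is therefore a description. In the middle mice, which did not pick them, the slope of ENSMUSG00000046215 had the other sign (-0.46 ± 0.43, SE). The others had the same sign there, and none passed. The batch share of the 4-gene mean was 7.59% with the collagens alone (permutation p = 0.103, against 0.0393 for the 4 genes). In the other alternatives the unadjusted p stayed under 0.05. The share was 10.0% with cohort removed first (permutation p = 0.0257) and 9.95% without the 2 widest arrays (permutation p = 0.0273). For Timp1 alone it was 9.12% (permutation p = 0.0425). The counts of 0 in middle mice and between early and late cohorts stayed 0 in the 4 alternatives run for each. Component 1, the array mean removed from the score, single mice left out and the slopes on single genes and joint fits were chosen after seeing the data. The filters on low values were not run. No paired analysis was possible because no label pairs the mice; their replicate numbers are names given in accession order.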
